A study of Mus musculus with 2 samples.

Results

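The genes examined were 10 genes known from the sclerotome and from cartilage, or related to such genes. They were Mdfi, Mdfic, Pax1, Pax9, Nkx3-2, Acan, Matn1, Hapln1, Sox5 and Foxc2, which is 10 genes with 14 of the 39429 probes of the array. Each probe was taken by the gene name that both array files give it. Mdfi and Pax1 were chosen by their ratios of Rbpj-cKO over control, which were among the lowest of the series. The other genes were added to ask whether sclerotome and cartilage genes moved with them. The ratios of all 10 genes are therefore given as a description, with no test.

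RNA came from ureters dissected from NMRI mouse embryos at E14.5. The Rbpj-cKO embryos carried Tbx18(cre/+) and Rbpj(fl/fl), and the control embryos carried a floxed Rbpj allele with the other allele not stated, Rbpj(fl/?), and no Cre in their label. The samples were 2 arrays, each hybridised with both genotypes in different dyes. Replicate 1 held male RNA with Rbpj-cKO in red, and replicate 2 held female RNA with Rbpj-cKO in green, so sex and dye cannot be told apart. The Cre is expressed from the Tbx18 locus, which is active in the mesenchyme around the ureteric epithelium and, in mouse embryos, also in the anterior part of the somites. Cells that never expressed Tbx18 keep Rbpj, and the number of embryos behind each RNA is not stated.

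The sclerotome is the part of the somite that forms vertebrae and ribs. Pax1 and Pax9, closely related paired-box transcription factors, act in it downstream of Hedgehog signals from the notochord, and Nkx3-2 acts downstream of them. Sox9, with Sox5 and Sox6, then switches on cartilage genes such as Acan. Mdfi encodes an inhibitor that binds myogenic transcription factors of the MyoD family and Tcf/Lef factors, and Mdfic encodes a related protein that shares its cysteine-rich end. Rbpj, the gene removed here, encodes the factor through which activated Notch receptors reach DNA.

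The shares of spots well above background ran from 67.7% to 70.1% over the 4 channels. The 2 arrays were inversely related over the 20495 tested genes (Pearson's r = -0.352 between their log2 ratios). Rbpj itself had log2 ratios of -1.13 on replicate 1 and -0.63 on replicate 2, lower in Rbpj-cKO on both. These are of its brightest probe. Its other probe averaged -0.42, and the mean over its probes was -0.80 and -0.50. In female Rbpj-cKO, processed signals of 123 for Ddx3y and 218 for Eif2s3y, which are Y-linked, were 8.04% and 8.89% of those in male Rbpj-cKO. Both were well above background on 4 of 4 spots there, so this channel went against its label in part. Of the ureter markers, 10 of 10 passed the filter on dim probes. Tbx18 stood at levels from 13.35 to 13.62 over the 4 channels, and the urothelial gene Upk1b from 8.33 to 8.43. The smooth muscle myosin gene Myh11 was dim, at levels from 6.58 to 6.77. Values are given for each array throughout, so that each result can be read with and without the female pair.

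The windows upstream of the start sites of both related pairs are shown because Mdfi and Pax1 were low in Rbpj-cKO while Mdfic was not, and because Rbpj binds DNA. They are from RefSeq (GRCm38.p6), 250 bases before the start, 5′ to 3′ on the gene's strand. Capitals mark TGGGAA, the core bound by Rbpj, or its reverse complement TTCCCA.
Mdfi, chr17:47834692-47834941, minus strand: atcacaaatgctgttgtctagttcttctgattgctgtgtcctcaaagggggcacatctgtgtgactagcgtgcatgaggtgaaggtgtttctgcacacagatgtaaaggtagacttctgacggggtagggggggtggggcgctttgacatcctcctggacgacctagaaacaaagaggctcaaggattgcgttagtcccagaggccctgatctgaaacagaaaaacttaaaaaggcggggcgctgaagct
Mdfi, second start, chr17:47833292-47833541, minus strand: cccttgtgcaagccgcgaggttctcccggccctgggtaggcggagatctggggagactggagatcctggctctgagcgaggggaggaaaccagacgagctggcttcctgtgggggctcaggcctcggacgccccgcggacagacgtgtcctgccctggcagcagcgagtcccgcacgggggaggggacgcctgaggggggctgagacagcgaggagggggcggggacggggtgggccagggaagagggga
Mdfic, chr6:15720411-15720660, plus strand: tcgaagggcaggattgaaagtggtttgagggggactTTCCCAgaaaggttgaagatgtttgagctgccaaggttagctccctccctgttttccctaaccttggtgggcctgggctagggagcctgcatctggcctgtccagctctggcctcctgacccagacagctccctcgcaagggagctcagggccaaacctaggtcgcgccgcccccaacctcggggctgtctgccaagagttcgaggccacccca
Pax1, chr2:147364744-147364993, plus strand: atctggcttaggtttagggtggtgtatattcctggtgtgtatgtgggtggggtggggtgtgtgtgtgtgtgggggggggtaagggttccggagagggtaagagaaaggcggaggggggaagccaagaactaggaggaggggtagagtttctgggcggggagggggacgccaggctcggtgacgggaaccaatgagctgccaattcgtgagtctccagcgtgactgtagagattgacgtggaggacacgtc
Pax9, chr12:56695221-56695470, plus strand: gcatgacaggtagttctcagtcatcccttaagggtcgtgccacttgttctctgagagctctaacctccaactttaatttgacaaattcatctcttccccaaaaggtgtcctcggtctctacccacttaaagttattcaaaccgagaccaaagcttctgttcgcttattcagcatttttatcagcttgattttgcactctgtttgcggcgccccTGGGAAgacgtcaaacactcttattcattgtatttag

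The Rbpj core, searched on both strands, was in 0 of the 3 windows of Mdfi and Pax1, in the Mdfic window starting 214 bases before the start, and in the Pax9 window starting 37 bases before it. Of the same 250-base windows of all 32851 start sites in the RefSeq table, 21.6% held it. Over the 10 windows of the 9 genes that matched the table (all but Foxc2), 2 held it. The Gli motif TGGGTGGTC, or GACCACCCA on the other strand, was in 0 of these 10 windows and in 0.225% of all windows. The motifs do not overlap in their letters beyond TGGG. Such matches describe the letters of these windows only.

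Among the inhibitors, Mdfi was lower in Rbpj-cKO by nearly the same amount on both arrays, and Mdfic was not. The only probe of Mdfi (mm9, chr17:47952285-47952344) begins with these 30 bases.
Mdfi probe: ggaagggggtagagggagggtctgttcgat
Levels below are normalized log2 intensities of a probe in a channel, and a log2 ratio is the level in Rbpj-cKO minus that in control. Mdfi stood at 13.50 in male Rbpj-cKO and 14.78 in male control. It stood at 13.71 in female Rbpj-cKO and 14.95 in female control. Both Rbpj-cKO channels lay below both control channels, and the channels of a genotype differed by at most 0.20. The share of all genes whose channels lay apart in this way was not counted, for Mdfi or for any gene below. The log2 ratios were -1.28 and -1.24, which average to -1.26 ± 0.027 (SD, n = 2), 2.39-fold lower. The 4 spots ranged from -1.31 to -1.24 on replicate 1 and from -1.26 to -1.22 on replicate 2. With median centring of each array, the log2 ratios of Mdfi were farther apart, at -1.06 and -1.49. On the linear scale of the scanner software, the processed signals were 3913 in Rbpj-cKO and 9460 in control on replicate 1, and 3901 and 9379 on replicate 2. In bulk RNA, fewer cells that express a gene and less RNA per cell cannot be told apart.

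Mdfic has 2 probes on mm9 chromosome 6, and neither followed Mdfi. The brighter stood at 12.17 in male Rbpj-cKO, 12.22 in male control, 12.33 in female Rbpj-cKO and 12.14 in female control. These channels overlapped between the genotypes. Its log2 ratios were -0.05 and 0.19, a mean of 0.07 ± 0.17. The other probe had 0.03 and 0.22. Both probes were thus near 0 on the male array and slightly above it on the female array.

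**Figure D1:**
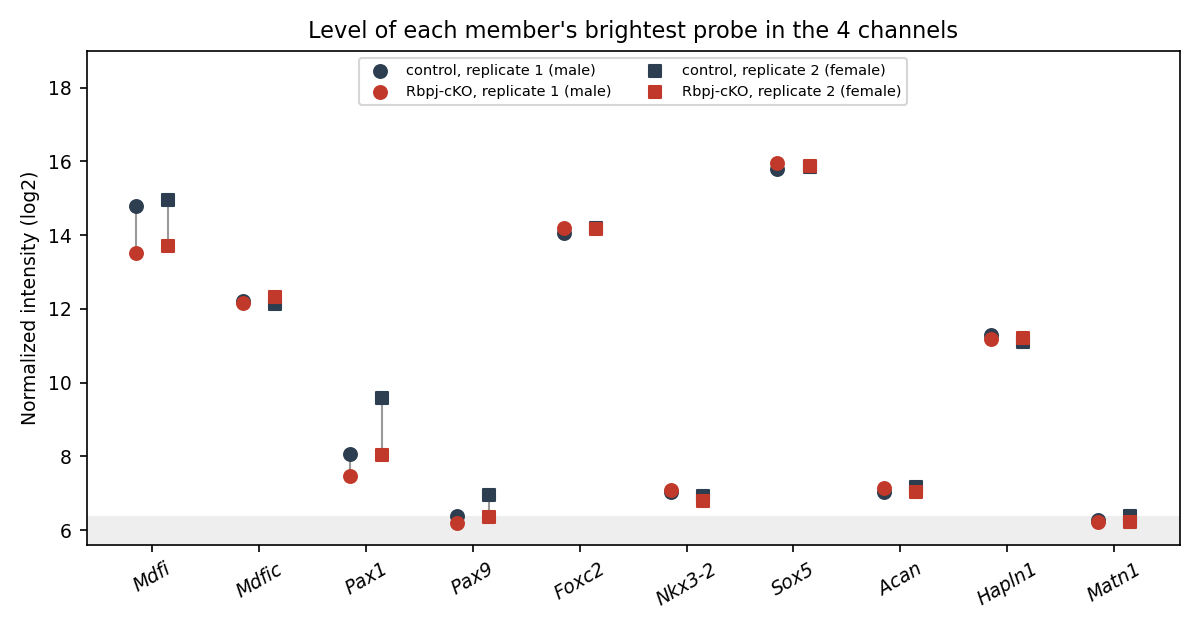
Normalized log2 intensity (vertical axis) of the brightest probe of each of the 10 genes, with 1 point for each genotype and array (circles, male replicate 1; squares, female replicate 2) and a line joining the genotypes of an array. The grey band ends at 6.36, the highest of the lowest levels that counted as well above background in a channel. Mdfi and Pax1 show the widest gaps, the points of Pax9 and Matn1 lie in or near the band, and levels of different genes are not comparable.

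Among the transcription factors, Pax1 was lower on both arrays, by a different amount on each. Its only probe (mm9, chr2:147200673-147200732) begins with these 30 bases.
Pax1 probe: tcaattgttgtagtcataaacatattactg
Pax1 stood at 7.48 in male Rbpj-cKO and 8.07 in male control. It stood at 8.04 in female Rbpj-cKO and 9.59 in female control. Both Rbpj-cKO channels lay below both control channels, but female Rbpj-cKO came within 0.03 of male control. The log2 ratios were -0.59 and -1.55, which average to -1.07 ± 0.68 (SD, n = 2), 2.10-fold lower. Control differed between the arrays by 1.52 and Rbpj-cKO by 0.56, both higher on the female array. The probe is dim, with processed signals of 36.9 in Rbpj-cKO and 69.3 in control on replicate 1, and of 53.1 and 194 on replicate 2. All 4 spots were well above background in each channel. With the outlier spot of replicate 1 kept, its ratio there was -0.56, and with median centring -0.58, both short of 1.5-fold.

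Pax9, which acts with Pax1 in the sclerotome, was close to background. Its brighter probe (mm9, chr12:57811230-57811289) was well above background on 4 of 4 spots in female control and on 0 of 4 in each of the other 3 channels. Its levels were 6.20 and 6.39 in male Rbpj-cKO and control, and 6.36 and 6.96 in female Rbpj-cKO and control. Rbpj-cKO was not well above background on either array and control on 1 of 2, so no fold over both arrays is given. The other Pax9 probe was not well above background in any channel. As with Pax1, the brightest channel of Pax9 was female control.

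Nkx3-2 and Foxc2 did not follow Pax1. Nkx3-2, a homeobox repressor that promotes cartilage formation, was dim at 7.09 in male Rbpj-cKO, 7.05 in male control, 6.79 in female Rbpj-cKO and 6.91 in female control. The genotypes overlapped, and the log2 ratios were 0.04 and -0.12, a mean of -0.04 ± 0.11. With the scanner software's processed signals they were -0.02 and -0.34. Foxc2, a forkhead factor of somites, kidney and vessels, stood from 14.05 to 14.19 over the 4 channels, with log2 ratios of 0.14 and -0.01.

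For Sox5, a partner of Sox9 in chondrocytes, the 3 probes did not measure alike. The brightest covers only 27 bases of the mm9 genome (chr6:143776945-143776971) although it has 60 bases, and it is made of A and G alone. Of the 39429 probes, 23 are made of A and G alone. The first 30 bases of the 3 probes are shown to set the repeat against the others, with GGA in capitals in the repeat probe.
Sox5 repeat probe: GGAGGAGGAGGAagaGGAGGAGGAGGAaga
Sox5 probe at chr6:143781520-143781579: ttacaagcaaaaacgtcatcaagaagaaga
Sox5 probe at chr6:143787982-143788041: ctgggcccatgggcaaattcaatcagatgc
The repeat probe stood from 15.78 to 15.97 over the 4 channels. It holds GGA 16 times, and it stood for Sox5 in the count of genes because it was the only one of the 3 past the filter. The second probe was well above background on 3 and 2 spots on replicate 1 and on 1 and 1 spots on replicate 2, in Rbpj-cKO and control in that order. The third had 0 or 1 such spots in each channel. The repeat probe had log2 ratios of 0.19 and 0.02, and the second probe 0.14 on replicate 1. No ratio is given for the second probe on replicate 2 or for the third, where 0 or 1 spots were well above background in each channel. Whether the repeat probe measures Sox5 was not tested.

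Among the matrix genes, Hapln1 and Acan did not follow Pax1 either, and Matn1 had no level above background. Hapln1 encodes the link protein that ties aggrecan to hyaluronan. It stood at 11.18 in male Rbpj-cKO, 11.30 in male control, 11.22 in female Rbpj-cKO and 11.11 in female control, with log2 ratios of -0.12 and 0.10. The genotypes overlapped. Acan, aggrecan itself, was dim at 7.14, 7.05, 7.03 and 7.17 in the same order, with log2 ratios of 0.09 and -0.14. Its channels overlapped as well. Matn1, a matrilin of cartilage, was well above background on 0 of 4 spots in each of the 4 channels, so no ratio is given for it.

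**Figure D2:**
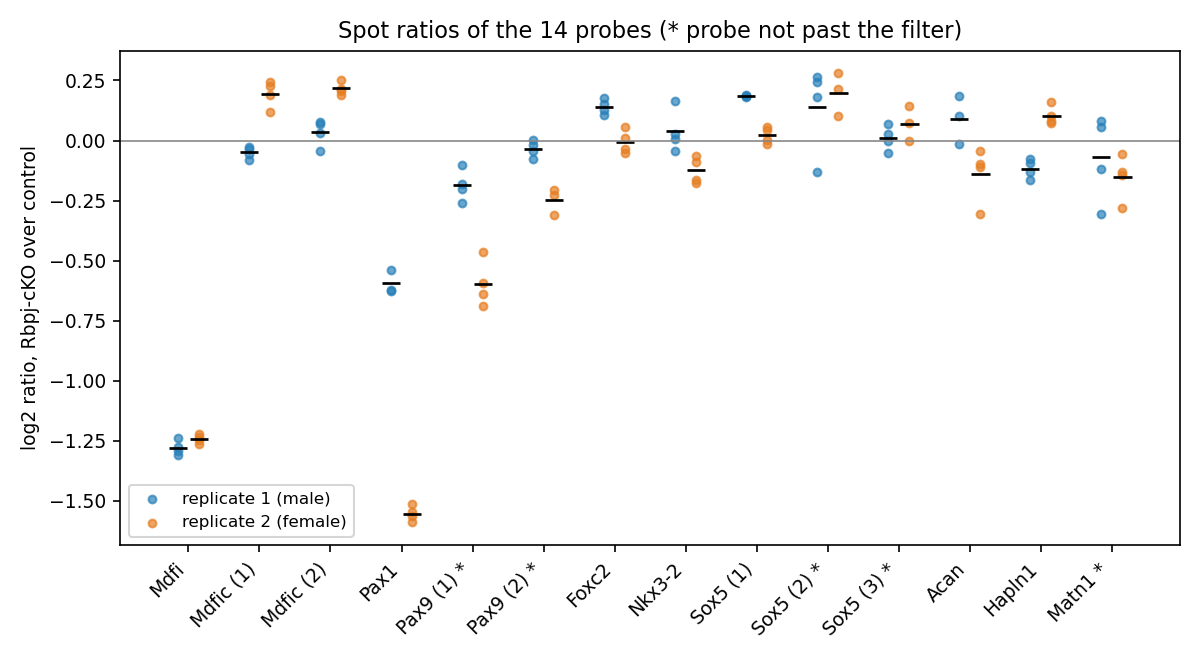
Log2 ratio of Rbpj-cKO over control (vertical axis) of each unflagged spot of the 14 probes, blue for male replicate 1 and orange for female replicate 2, with a bar at the probe's mean. Numbers in brackets order the probes of a gene by brightness, and an asterisk marks a probe that was not past the filter on dim probes. The spots of Mdfi lie between -1.31 and -1.22 on both arrays, and those of Pax1 fall into separate groups by array.

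Of the 10 genes, 8 passed the filter on dim probes, which asks on both arrays for 2 of 4 spots well above background, in either channel. Lower on both arrays were 2 of the 8, Mdfi and Pax1, where 14.7% of all tested genes were. Both were at least 1.5-fold lower on both arrays, where 0.0634% of all genes were, but they were chosen for these ratios and nothing is read from this. Opposite signs on the arrays were seen for 5 of the 8, where 69.2% of all genes had them. The 6 genes other than Mdfi and Pax1 had mean log2 ratios from -0.04 to 0.10, and single-array ratios from -0.14 to 0.19. Their median was 0.06 on replicate 1 and 0.01 on replicate 2, against 0.00 and 0.00 over all genes. Sox5, through its repeat probe, was the 1 of these 6 with the same sign on both arrays, above 0, and with median centring its signs were opposite. No gene of the series passed limma's test across all genes (0 of 20495 at adjusted p under 0.05, 0%), with 372 at an unadjusted p under 0.05. With an intensity trend and robust moderation limma called 5 genes.

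**Figure D3:**
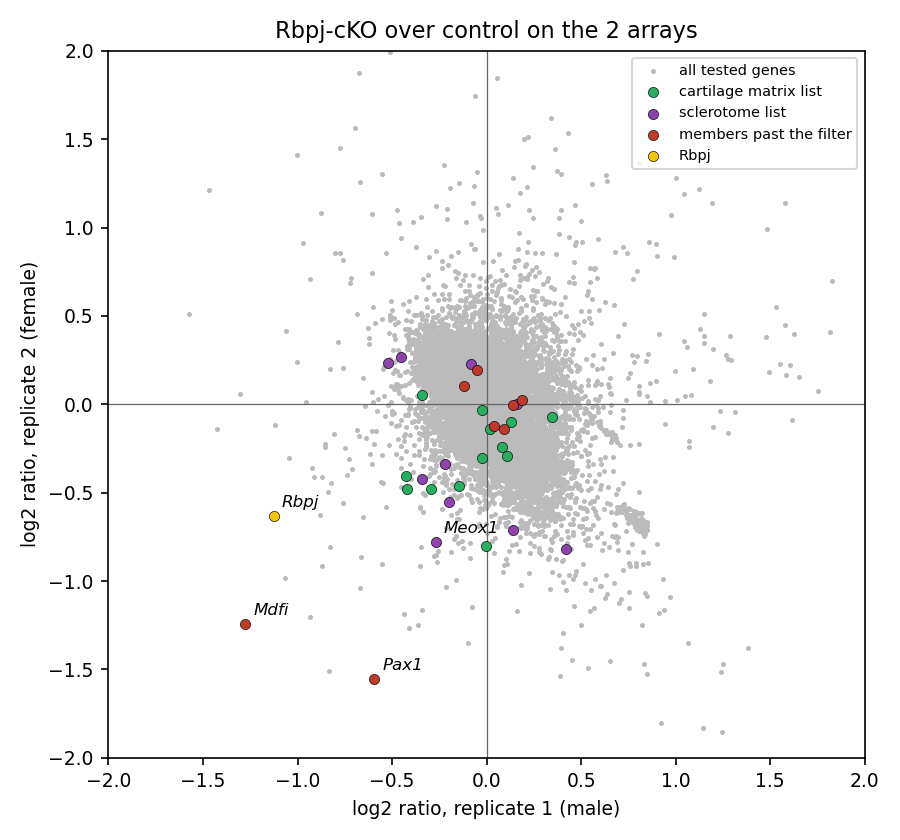
Log2 ratio of Rbpj-cKO over control on male replicate 1 (horizontal axis) against female replicate 2 (vertical axis) for the tested genes, with 13 genes outside the axes. Mdfi (-1.28 and -1.24) and Pax1 (-0.59 and -1.55) lie far down and to the left, and the other 6 members past the filter lie near 0.

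The genes whose pair of ratios lay nearest to those of Mdfi, by Euclidean distance over the 2 arrays, were Pi4k2b, Aspn and Car3. Pi4k2b, a lipid kinase gene, had -1.07 and -0.98 at a distance of 0.336. Aspn, a small matrix proteoglycan of cartilage and tendon, had -0.93 and -1.21 at a distance of 0.348. Car3, a carbonic anhydrase, had -0.83 and -1.51 at 0.520. Car3 was also the nearest to Pax1, at 0.243. The next were Thbs4, a thrombospondin of tendon and muscle (-0.41 and -1.26, at 0.342), and the basal keratin gene Krt5 (-0.36 and -1.25, at 0.384). Few genes lie this far from 0, and the distances rest on 2 values for each gene.

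Other genes of sclerotome and cartilage were taken from lists that leave out the 10 genes above. These lists, and those below, were also chosen with earlier results of these data known. Their counts beside the shares over all genes are therefore a description. Of 17 cartilage matrix genes, 13 were tested, and 7 of these were lower and 0 higher on both arrays, where 14.7% and 16.1% of all genes were. Of the 7, Comp had -0.02 and -0.03, Col9a2 -0.002 and -0.80, and Matn4 -0.02 and -0.30. With median centring 5 were lower on both arrays, where 9.83% of all genes were. None of the 13 was 1.5-fold lower on both arrays, and 0 passed the test at adjusted p under 0.05. At an unadjusted p under 0.05, 3 were lower and 0 higher, where 0.527% and 1.29% of all genes were. The list's median was -0.02 on replicate 1 and -0.29 on replicate 2.

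The 3 cartilage matrix genes were collagen genes. Col2a1, the main collagen of cartilage, stood at 12.55 in male Rbpj-cKO, 12.97 in male control, 12.74 in female Rbpj-cKO and 13.22 in female control. The log2 ratios of Col2a1 were -0.42 and -0.48, a mean of -0.45 ± 0.045. Col9a1 and Col9a3 encode chains of type IX collagen, which coats the type II fibrils. Col9a1 had -0.29 and -0.48, and Col9a3 had -0.43 and -0.40. Epyc, a small proteoglycan of cartilage, had -0.15 and -0.46. These 4 genes, named for the smallest p of the list, were lower on both arrays in 9 of 9 settings of the processing. The filter, probe and outlier settings left their values unchanged. Opposite signs were seen for 6 of the 13, where 69.2% of all genes had them. Papss2 had 0.35 and -0.07, Cnmd 0.13 and -0.10, and Col27a1 0.11 and -0.29. Col11a2 had 0.08 and -0.24, Chad 0.02 and -0.14, and Col11a1 -0.34 and 0.05. These 6 were named after their values were seen. The genes Matn3, Snorc, Ucma and Col10a1 were not past the filter, with at most 1 spot well above background in any channel.

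Of 11 sclerotome and somite genes, 10 were tested, and 4 were lower and 1 was higher on both arrays, against 14.7% and 16.1% of all genes. The test passed 0 of them, and 3 were lower at an unadjusted p under 0.05, against 0.527% of all genes. With median centring 3 were lower on both arrays, where 9.83% of all genes were. Meox1 and Meox2, homeobox factors of somites, had -0.27 and -0.78, and -0.34 and -0.42. Pdgfra, a growth factor receptor of mesenchyme, had -0.20 and -0.55, but 0.12 and -0.87 with median centring. Twist1, a bHLH factor of mesenchyme, had -0.22 and -0.34. Median ratios of the list were -0.21 on replicate 1 and -0.38 on replicate 2. Not every somite gene was low. Opposite signs were seen for 5 of the 10, where 69.2% of all genes had them. Foxc1, the relative of Foxc2, had -0.08 and 0.23, Uncx -0.52 and 0.23, and Tcf15 -0.45 and 0.27. Zic1 had 0.42 and -0.82 (its other probe averaged 0.03), and Tbx15 had 0.14 and -0.71. These 5 were named after their values were seen.

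Chondrocyte regulators were mixed. Of 15, 13 were tested, with 3 lower and 2 higher on both arrays, against 14.7% and 16.1% of all genes. The test passed 0 of them. Sox9, the chief activator of cartilage genes, had -0.11 and -0.19, and 0.04 and -0.37 with median centring. Gdf5, a joint and cartilage growth factor, had -0.85 and -0.23, and its other probe averaged -0.21. Pthlh, which slows chondrocyte maturation, had 0.39 and 0.13, and Fgfr3 had 0.05 and 0.17, which was 0.21 and -0.01 with median centring, and its other probe averaged -0.11. The list's medians were -0.04 and -0.05. With median centring 2 of the list were lower on both arrays, where 9.83% of all genes were. Runx2 and Barx1 were not past the filter, with 0 spots well above background.

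Of 11 tendon and bone genes, 8 were tested, with 4 lower and 0 higher on both arrays, against 14.7% and 16.1% of all genes. With median centring 2 were lower on both arrays, where 9.83% of all genes were. Scx, the transcription factor of tendon progenitors, had -0.62 and -0.28 and was the 1 gene at an unadjusted p under 0.05. The osteoblast genes Sp7 and Ibsp had -0.08 and -0.20, and -0.20 and -0.10, the latter -0.34 and 0.06 with median centring. Dlx5 had 0.07 and -0.23. Of 7 other Pax genes, 4 were tested and 0 passed. Pax3 and Pax7, of dermomyotome and muscle progenitors, had 0.02 and 0.26, and -0.09 and -0.31. Pax2 and Pax8, of the kidney and its duct, had -0.03 and -0.26, and 0.04 and 0.13. With median centring Pax3 had -0.09 and 0.34 and Pax8 0.18 and -0.04. Pax2 had 0.01 and -0.38 in the authors' deposited series table, and its other probe averaged 0.11.

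The Hedgehog genes, which act upstream of Pax1 in the sclerotome, showed no common direction. Of 14 tested, 4 were lower and 1 was higher on both arrays, against 14.7% and 16.1% of all genes. The list's medians were -0.04 and -0.09, and 0 passed the test. With median centring 1 was lower on both, where 9.83% of all genes were. Dhh, the ligand made by Schwann cells, had 0.28 and 0.75. The mesenchymal target Foxf1 had -0.19 and -0.21 (its other probe averaged -0.13). Gli2 had -0.04 and -0.26, and the co-receptor gene Boc -0.03 and -0.45, both opposite in sign with median centring. Of 5 notochord markers, T and Noto were not past the filter. Foxa2 (-0.07 and 0.25), Krt8 (-0.05 and 0.04) and Krt19 (0.08 and -0.57), also epithelial genes, had opposite signs, where 69.2% of all genes had.

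Among known binding partners of Mdfi and Mdfic, 10 of 11 were tested and 0 passed. Hand1, a bHLH factor, had 1.05 and 0.36 and was the 1 gene at an unadjusted p under 0.05, higher. Myod1 had 0.09 and -0.91, and Myog 0.22 and -0.96. Lef1 had -0.09 and -0.25, and 0.06 and -0.43 with median centring. Lower on both arrays were 3 of the 10, where 14.7% of all genes were, and 0 with median centring, where 9.83% were. Myf5 had 0 spots well above background.

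**Figure D4:**
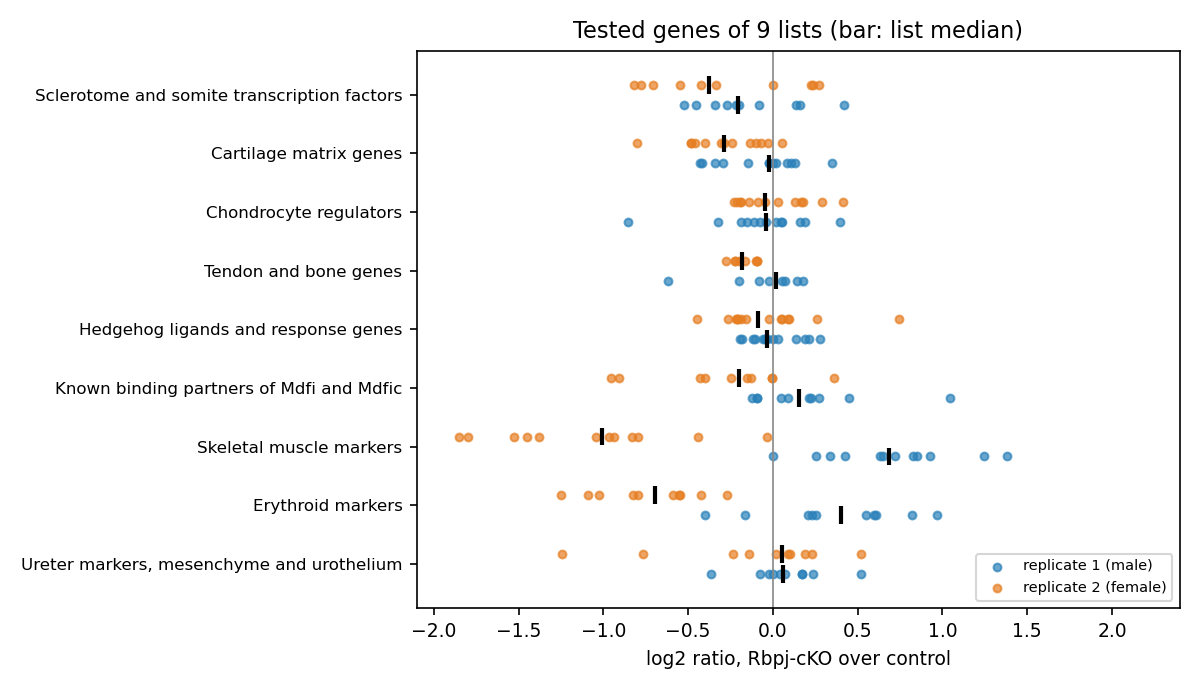
Log2 ratio of Rbpj-cKO over control (horizontal axis) of each tested gene in 9 lists, blue for male replicate 1 and orange for female replicate 2, with a black bar at the list's median on that array. Skeletal muscle genes have medians of 0.69 and -1.01, while the sclerotome list has -0.21 and -0.38.

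Markers of skeletal muscle and blood differed between the arrays. Of 12 skeletal muscle markers, 12 had opposite signs on the arrays, where 69.2% of all genes had them. For 8 of the 12 this was by 1.5-fold or more each way, where 0.717% of all genes were. The list's medians were 0.69 on replicate 1 and -1.01 on replicate 2. The summed linear intensity of the list in Rbpj-cKO was 1.56 times that of control on replicate 1 and 0.479 times on replicate 2. Such sums are led by the brightest probes, here Actc1 and for the erythroid list Hba-a1. Of 10 erythroid markers, 2 were lower on both arrays, where 14.7% of all genes were, and 8 had opposite signs, where 69.2% had. Their summed intensities were 1.68 and 0.495 times control. For the cartilage matrix genes these sums were 0.926 and 0.715 times control.

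On the male array, the muscle list thus had a median of 0.69 while Mdfi, Pax1, Col2a1 and Meox2 were lower in Rbpj-cKO. These genes were chosen by their ratios or named for a small p. On the female array the muscle median was -1.01 and the same genes were lower as well. Pax1 and Meox1 lay farther below control there than on the male array. Other listed genes, such as Zic1 and Tbx15, had the signs of the muscle markers. Opposite signs, either way round, were seen for 6 of the 13 cartilage matrix genes and 5 of the 10 sclerotome genes. The part of muscle or other neighbouring tissue in the ratios of Mdfi and Pax1 was not tested.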

How the data were processed

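Gene expression in ureters was measured on 2 two-colour Agilent arrays, each with Rbpj-cKO and control RNA and dyes exchanged, with 150 ng of total RNA per labelling. Per the file headers, the deposited spot mean and background median intensities are linear and not normalized. The processed intensities are the scanner software's background-subtracted, dye-normalized values, and the deposited log10 ratio is red over green of these, per the file headers. Deposited flag columns are other values, 0 or 1, per the file headers. Agilent Feature Extraction 10.7.3.1 made the files, per the submitters' processing notes, on mm9 probe coordinates. The authors' series table holds a score read from its values as a signed fold change, with the method not given in the sources used here. On the log2 scale, 11196 and 11570 of its values are 0.

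Background was corrected with normexp (offset 50), which draws dim ratios towards 0, and ratios were normalized by loess with weight 0 for 17263 control spots in limma 3.58.1 (R 4.3.3). Outlier-flagged spots (3.57% and 3.9%) were left out, 0 spots were saturated, and the rest of a probe's 4 spots were averaged. Replicate 2 was turned, so that ratios are Rbpj-cKO over control. Levels per channel are after Aquantile scaling. The filter kept 26980 probes. The brightest probe stood for each of 20495 genes, named by RefSeq accession for 28328 probes, by symbol for 3400 and by the file for 7701. Genes were tested with lmFit and eBayes (two-sided, Benjamini-Hochberg adjusted), with 1 residual and 5.57 prior degrees of freedom. The fit was also run on simulated data with 1 spread for all genes and unrelated arrays. The real arrays were inversely related, so nothing about these data is read from that run. The number of arrays limits the precision. The p-values rest only on the spread between 2 arrays, drawn for each gene towards that pooled over all genes. From each list the 4 genes with the smallest p are named, and the genes nearest to Mdfi and Pax1 leave out clone names. Members and lists were chosen with earlier results of these data known. Alternatives were other background, scaling, filter, probe, outlier and moderation settings, the authors' table, and each replicate left out.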

Additional observations from a re-analysis of the deposited data

Results flagged for a closer look

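The male and the female pair went opposite ways, by at least 1.5-fold each, for the median of the skeletal muscle markers and for 3 of the genes named from that list. Male minus female, the median differed by 1.69 on the log2 scale. For Acta1, skeletal muscle actin, the difference was 2.72, from 0.92 and -1.80. For Actn2, an actinin of the muscle Z-disc, it was 2.38, from 0.85 and -1.53. For Chrna1, a subunit of the muscle acetylcholine receptor, it was 2.10, from 0.65 and -1.45. Averaged over all its probes, Chrna1 had 0.38 and -1.02, short of 1.5-fold on the male array. With 1 array per sex the differences were not tested. Of the 10 genes described above, 0 went opposite ways by this much.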

How the results depend on the processing

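Mdfi kept a mean log2 ratio of -1.26 to -1.28 over the 8 alternatives that used both arrays, and of -1.24 and -1.28 with 1 replicate left out. The filter, probe and outlier settings could not move it, since Mdfi has 1 bright probe and no flagged spot. With median centring its single-array ratios were -1.06 and -1.49. For Pax1 the mean was -1.39 with the scanner software's processed signals and -1.37 with the authors' series table, and it ran from -1.55 to -0.59 with 1 replicate left out. Members lower on both arrays were 2, and 3 with processed signals, no background subtraction or the authors' table (Nkx3-2 added) and with median centring (Acan added). They were 4 with no filter on dim probes, which adds Pax9 and Matn1. With median centring the median over all genes was 0.12 on replicate 1 and -0.13 on replicate 2, and the ratios of single arrays given for that setting carry this shift. Genes at least 1.5-fold the same way were 40, and 88 with processed signals and 85 with the authors' table. Genes lower on both arrays were 3022, and 5179 of a larger number of genes with no filter. Genes at adjusted p under 0.05 were 0, 2 with processed signals (9430037G07Rik and Gm19410) and 5 with the intensity trend. For other members and lists, 206 values moved by less than the spread between arrays or 1.5 times, and 36 by more. The 206 include settings that could not move a gene with 1 bright probe and no flagged spot. They also include each member's mean with 1 replicate left out, which always moves by less than the SD of the 2 arrays. The skeletal muscle median is among them although its sign differed, at -1.01 without replicate 1 and 0.69 without replicate 2. The test is paired by its construction, since each array gives the ratio of both its genotypes, so no separate replicate block was fitted. Replicate-out counts could not be given where a call needs both arrays. Low signal over background limits Pax9, Matn1, Acan and Nkx3-2.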
